A study of Mus musculus with 4 samples.

Results

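Ribosome biogenesis is described here through 45 genes of 10716 measured in erythroid cells of mouse fetal liver. They are the rows of the deposited gene table named Nop, Nol, Utp or Rrp with a number, the RNA polymerase I subunit genes Polr1a to Polr1e, and Bop1, Pes1, Wdr12, Fbl, Dkc1, Ncl, Npm1, Imp3, Imp4, Nip7 and Gar1. They were chosen by name, with earlier results of these data known. RNA came from C57BL/6 fetal livers at embryonic day 14.5, from cells sorted for YFP made from the R26eYFP reporter. There were 2 libraries labelled knockout (replicates 1 and 2), with the genotype Epor-Adar / +, in which Cre recombinase expressed from the erythropoietin receptor gene acts on Adar, which encodes the RNA-editing enzyme ADAR1. The other 2, called controls here, were labelled wild type (replicates 3 and 8). Whether the deletion affected both Adar alleles is not stated in the genotype field, and the labels do not say which Cre and reporter alleles the controls carry, nor whether each library was a separate embryo. P-values therefore measure the spread between these 4 libraries.

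Ribosomes are assembled in the nucleolus. RNA polymerase I transcribes a long precursor of ribosomal RNA, small nucleolar ribonucleoproteins (snoRNPs) guide its chemical modification and early cleavage, and large sets of assembly factors build the small (40S) and large (60S) subunits around it. Dividing erythroid progenitors make many ribosomes to support globin synthesis, and assembly declines as the cells mature. Defects in ribosome production are known to cause anaemia in people and mice. The libraries measured messenger RNA of these factors, not ribosomal RNA or ribosomes.

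Libraries held from 28356401 to 44016809 counts. Levels below are in CPM, a counts-per-million unit of the TMM-scaled library, with replicates 1 and 2 given before replicates 3 and 8. Adar itself had 67.1 and 102 CPM in the knockout-labelled arm against 50.9 and 46.9 in the control arm, which tests nothing about a partial deletion, since kept exons are counted too. The Y-linked gene Eif2s3y had 106 and 0 CPM in knockout-labelled replicates 1 and 2, labelled female and male, and 72.2 and 79.6 in control replicates 3 and 8, labelled female and male. In 3 libraries this gene and the sex label disagreed, so the fit below with labelled sex as a covariate cannot adjust for sex. Erythroid markers were measured in 12 of 12 cases, and their summed level was 72520 and 73890 CPM in the knockout-labelled arm against 104300 and 69240 in the control arm. Of the 12, 10 had a log2 fold change, knockout-labelled over control, below 0, where 50% of all genes did. Knockout-labelled replicate 1 was the lowest library in 9 of the 12, where it was in 41.3% of all genes. Of 8 lymphoid markers, 0 were in the table. Knockout-labelled replicate 1 stood apart, with 305 CPM summed over 7 of 9 neutrophil markers against 37.3 in replicate 2 and 41.1 and 45.3 in the controls.

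None of the 45 genes passed the test. Their log2 fold changes, knockout-labelled over control, ran from -0.86 for Bop1 to 0.31 for Npm1, and 37 of the 45 were below 0, where 50% of all genes were. The median was -0.35, beside -0.001 over all 10716 genes. In 23 of the 45 both knockout-labelled libraries lay below both controls, and in 0 they lay above both, whereas 26.7% of all genes had the first order and 27.4% the other. These members held most of the factors of both subunits, while the most abundant nucleolar proteins and several snoRNP and polymerase genes had groups that overlapped.

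edgeR's quasi-likelihood test, adjusted over all genes, called 0 of the 45 at an adjusted p below 0.05 in either direction, as 0.103% of all genes were called higher and 0% lower. The smallest adjusted p of a member was 0.391. Other fits called 0 of the 45 too. They were DESeq2 (3.29% of all genes called higher and 0.196% lower), limma-voom (0.0747% and 0%), the likelihood ratio test of edgeR (3.09% and 0.168%), a fit without library scaling (0.793% and 0.0187%) and a fit with labelled sex as a covariate (0.373% and 0.00933%). At an unadjusted p below 0.05 there were 5 members with values below the controls (2.08% of all genes) and 0 above (9.82% of all genes). In the authors' deposited table the adjusted p of the members ran from 0.442 to 0.988.

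**Figure D1:**
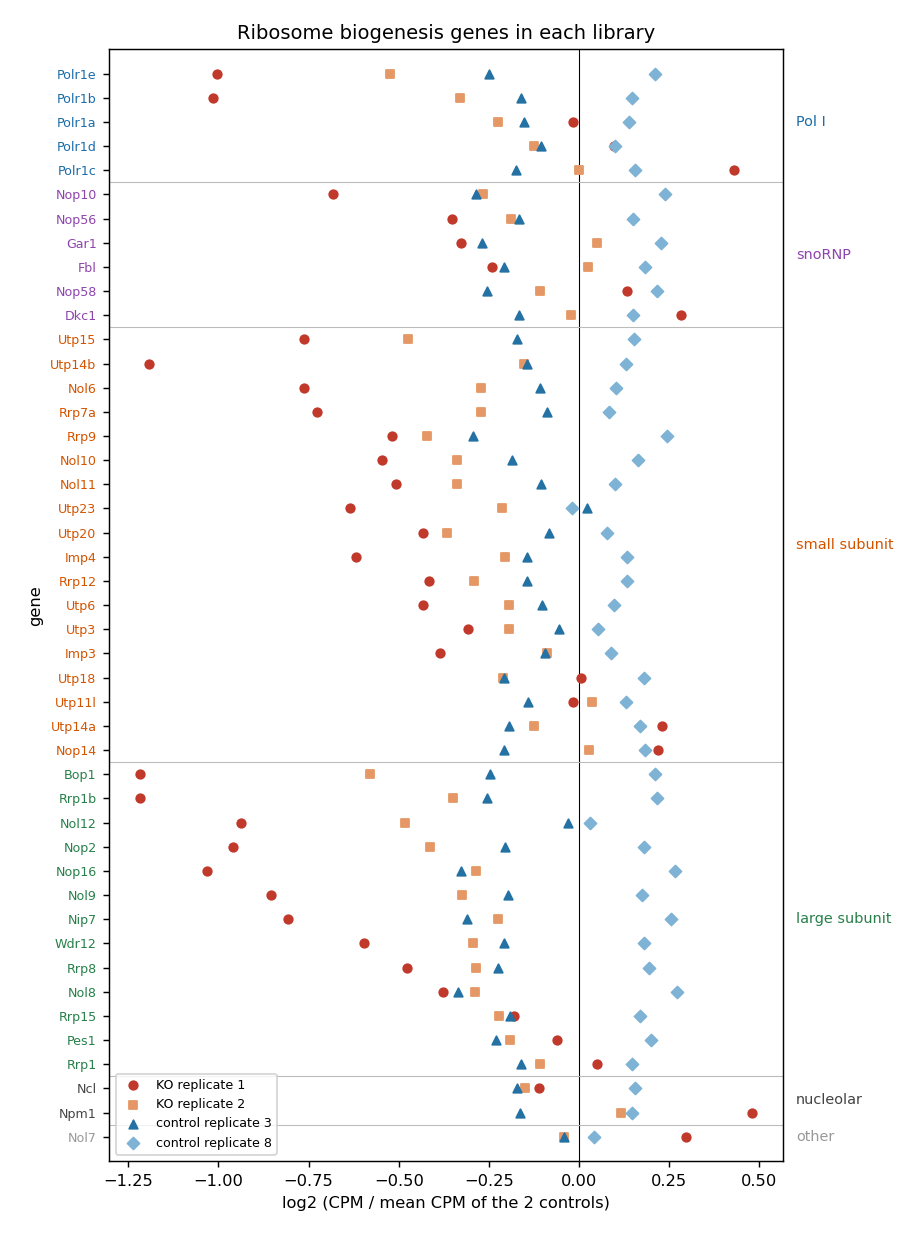
Level of each of the 45 genes in each library, as the log2 ratio of its CPM to the mean CPM of the 2 controls; rows are genes, grouped by role, and points are single libraries. Knockout-labelled replicate 1 is the lowest point in 30 of the 45 genes and control replicate 8 the highest in 38.

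The libraries did not contribute alike. Knockout-labelled replicate 1 was the lowest of the 4 in 30 of the 45 genes, which 41.3% of all genes showed, and knockout-labelled replicate 2 lay below both controls in 27 (where 35.3% of all genes did), between them in 18 and above both in 0. Replicate 1 lay below both in 30 (where 44.1% did). Relative to the control mean, the median log2 ratio over the 45 was -0.43 in replicate 1 and -0.22 in replicate 2. The controls also differed from each other. Control replicate 8 exceeded control replicate 3 in 44 of the 45 genes, where it did so in 53.4% of all genes, and the median log2 ratio of replicate 8 to replicate 3 was 0.33, a difference about as large as that between the groups. Control replicate 8 was the highest of the 4 libraries in 38 of the 45, against 22.1% of all genes.

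Among the 5 subunit genes of RNA polymerase I, Polr1e and Polr1b had groups that did not overlap, and Polr1a, Polr1c and Polr1d had groups that did. Over all genes, both knockout-labelled libraries lay below both controls in 26.7% and above both in 27.4%. Polr1e (ENSMUSG00000028318, chromosome 4 of NCBIM37, 45031455 to 45049437) encodes an initiation-associated subunit that binds the polymerase core. It had 8.51 and 11.9 CPM in the knockout-labelled arm against 14.4 and 19.8 in the control arm. Its 4 values did not overlap between the groups, and its log2 fold change was -0.74 (SE 0.29, 95% interval -1.46 to -0.03, edgeR adjusted p = 0.419). Polr1b (chromosome 2, 128926731 to 128952330), which encodes the partner of the largest subunit at the active site, had 26.1 and 42.0 CPM against 47.2 and 58.4, with replicate 1 far below the other 3 libraries. It had a fitted log2 fold change of -0.63 (SE 0.28, edgeR adjusted p = 0.433).

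Of the genes that overlapped, Polr1a, the largest subunit, had 82.1 and 71.2 CPM in the knockout-labelled arm against 74.7 and 91.6 in the control arm. Polr1c and Polr1d encode subunits that RNA polymerase I shares with RNA polymerase III. Polr1c had 55.1 and 41.0 CPM against 36.3 and 45.6, so that knockout-labelled replicate 1 was the highest library, and its log2 fold change was 0.23 (SE 0.24). Polr1d had 91.7 and 78.6 CPM against 79.7 and 91.9, and its log2 fold change of -0.01 had a 95% interval from -0.48 to 0.46. When control replicate 8 was left out, Polr1a had a log2 fold change of 0.026 and Polr1d one of 0.086. When knockout-labelled replicate 1 was left out, Polr1c had -0.002.

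The core proteins of the snoRNPs fell into the methylation class (Fbl, Nop56 and Nop58) and the pseudouridylation class (Dkc1, Gar1 and Nop10). Of the 6, 1 had groups that did not overlap, where 26.7% of all genes had both knockout-labelled libraries lower and 27.4% higher. That gene was Nop56, a scaffold of the methylation snoRNPs, with 258 and 289 CPM in the knockout-labelled arm against 294 and 366 in the control arm. Knockout-labelled replicate 2 and control replicate 3 were close together, with a fitted log2 fold change of -0.27 (SE 0.22, edgeR adjusted p = 0.544). Nop10, a small subunit of the pseudouridylation snoRNPs, had 37.6 and 50.2 CPM against 49.6 and 71.3. Here only replicate 1 lay below both controls (log2 fold change -0.46, SE 0.26).

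Dkc1, the pseudouridine synthase, had 214 and 173 CPM in the knockout-labelled arm against 157 and 195 in the control arm, with knockout-labelled replicate 1 the highest. Fbl, the methyltransferase fibrillarin, had 132 and 159 CPM against 135 and 177, and the pairs interleaved. The log2 fold changes were 0.14 for Dkc1 (SE 0.22), -0.10 for Fbl (SE 0.22), -0.13 for Gar1 (SE 0.26) and 0.02 for Nop58 (SE 0.24), each smaller than its SE. Each of these 4 changed sign when some single library was left out. In the NCBIM37 annotation 12 snoRNA genes lie within 4 of the 45 genes on the same strand, namely in Nop56, Nop58, Ncl and Dkc1. None of these 4 host genes passed the test.

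The small-subunit processome is the large particle that folds and cleaves the 40S part of the precursor, and 18 of its genes were measured. In 13 of the 18 both knockout-labelled libraries lay below both controls, where 26.7% of all genes did. The median log2 fold change of the 18 was -0.40. Utp15 (chromosome 13, 99016800 to 99032947), a factor that links transcription by RNA polymerase I to early processing, had 20.4 and 24.9 CPM in the knockout-labelled arm against 30.8 and 38.5 in the control arm. Its log2 fold change was -0.61 (SE 0.23, 95% interval -1.18 to -0.04, edgeR adjusted p = 0.419). Utp20 (chromosome 10, 88209352 to 88289559), a large helical-repeat scaffold, had 47.1 and 49.4 CPM against 60.1 and 67.1, and here the knockout-labelled libraries were close to each other. The log2 fold change of Utp20 was -0.40 (SE 0.18, edgeR adjusted p = 0.433). Nol11 (chromosome 11, 107027977 to 107050695), which works in the same subcomplex as Utp15, had 41.1 and 46.3 CPM against 54.4 and 62.6 and a log2 fold change of -0.42 (SE 0.19).

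The other 10 processome genes with separate groups were Nol6, Nol10, Rrp7a, Rrp9, Rrp12, Imp4, Utp3, Utp6, Utp14b and Utp23. Rrp9 and Imp4 belong to the U3 snoRNP, which base-pairs with the precursor, and Rrp12 acts in export of the subunits. Their log2 fold changes ran from -0.58 for Utp14b to -0.25 for Utp3. Utp14b was the least abundant of the 45, with 1.66 and 3.42 CPM against 3.44 and 4.16, so its knockout-labelled replicate 2 and control replicate 3 were almost equal. It is a near copy of Utp14a and shares 206 exon bases with Acsl3 on the same strand, and how reads shared between such genes were counted is not given in the sources used here. The 5 processome genes whose groups overlapped were Imp3, Nop14, Utp11l, Utp14a and Utp18, from -0.23 for Imp3 to 0.13 for Nop14 on the log2 scale.

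Assembly factors of the large subunit had the lowest median of the roles, -0.49 over 13 genes, and each of the 13 had a log2 fold change below 0, though Pes1 and Rrp1 did not in every fit that left out 1 library. In 7 of them both knockout-labelled libraries lay below both controls, where 26.7% of all genes did. Bop1 (ENSMUSG00000022557, chromosome 15, 76283426 to 76307699), a member of the PeBoW complex needed to mature the 60S precursor, had 29.8 and 46.4 CPM in the knockout-labelled arm against 58.3 and 80.2 in the control arm. Its mean was 38.1 ± 11.7 CPM in the first arm and 69.3 ± 15.5 in the second (SD, n = 2 each). Replicate 1 was lowest by a wide margin, for a fitted log2 fold change of -0.86 (SE 0.29, 95% interval -1.57 to -0.15, edgeR adjusted p = 0.391). The partners of Bop1 in that complex differed from it in size: the log2 value was -0.44 for Wdr12 (SE 0.23), and for Pes1 it was -0.13 (SE 0.22) with 83.7 and 76.5 CPM against 74.4 and 100.

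Nol12 (chromosome 15, 78765363 to 78774064), an RNA-binding protein of the nucleolus, had 16.3 and 22.3 CPM in the knockout-labelled arm against 30.5 and 31.8 in the control arm. The controls agreed closely in this gene, and its fitted log2 fold change was -0.69 (SE 0.24, 95% interval -1.28 to -0.11, edgeR adjusted p = 0.395). Nop2 (chromosome 6, 125081901 to 125094771), a cytosine methyltransferase of the large ribosomal RNA, had 40.6 and 59.3 CPM against 68.5 and 89.5 and a log2 fold change of -0.66 (SE 0.26). Nol9, a polynucleotide kinase of precursor processing, Rrp1b and Rrp8, a base methyltransferase, were the remaining genes with separate groups, at -0.56, -0.72 and -0.38. Nip7, Nop16, Nol8, Rrp1 and Rrp15 overlapped between the groups, with log2 fold changes from -0.61 for Nop16 to -0.03 for Rrp1.

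The promoters of the members at an unadjusted p below 0.05 are shown because E-boxes, the sites bound by MYC-family factors, are known in genes of ribosome assembly. RefSeq entries on GRCm38.p6 were matched by symbol for 37 of the 45, and there was none for Bop1, Nol6, Rrp12, Utp23, Utp6, Npm1, Fbl or Utp11l. Each line gives the 250 bases before the annotated start, 5′ to 3′ on the strand of the gene, with capitals for an E-box (CACGTG), an ETS-type motif (CCGGAAG) or a GC box (GGGCGG) on either strand. Nop2 is at chr6:125131633-125131882 (plus strand), Utp15 at chr13:98262993-98263242 (minus), Polr1e at chr4:45018359-45018608 (plus) and Nol12 at chr15:78934683-78934932 (plus).
Nop2: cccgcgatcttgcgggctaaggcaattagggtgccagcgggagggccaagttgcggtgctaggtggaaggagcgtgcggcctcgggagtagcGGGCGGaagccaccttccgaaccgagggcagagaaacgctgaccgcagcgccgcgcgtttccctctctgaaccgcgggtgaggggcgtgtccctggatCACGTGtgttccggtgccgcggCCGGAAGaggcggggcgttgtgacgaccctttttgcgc
Utp15: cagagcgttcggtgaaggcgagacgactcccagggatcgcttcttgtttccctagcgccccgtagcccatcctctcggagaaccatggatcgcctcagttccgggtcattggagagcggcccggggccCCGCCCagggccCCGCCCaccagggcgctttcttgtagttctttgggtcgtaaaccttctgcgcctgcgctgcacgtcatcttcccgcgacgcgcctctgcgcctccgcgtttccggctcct
Polr1e: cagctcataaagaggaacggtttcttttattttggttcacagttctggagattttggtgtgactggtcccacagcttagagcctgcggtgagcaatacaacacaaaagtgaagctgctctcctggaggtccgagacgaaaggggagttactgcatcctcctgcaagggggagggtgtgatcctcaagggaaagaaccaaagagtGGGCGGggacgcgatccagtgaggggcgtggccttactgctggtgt
Nol12: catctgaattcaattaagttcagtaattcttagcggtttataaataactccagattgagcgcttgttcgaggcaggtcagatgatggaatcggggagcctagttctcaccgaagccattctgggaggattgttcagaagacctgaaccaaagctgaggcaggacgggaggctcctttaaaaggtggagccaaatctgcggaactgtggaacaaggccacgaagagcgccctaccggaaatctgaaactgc

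In these 4 windows no matches overlapped. Nop2 had 1 match to each motif, with its E-box starting 60 bases before the start, Utp15 had 2 GC boxes, Polr1e had 1, and Nol12 had none of the 3. An E-box was found in such a window of 6 of the 37 members (16.2%), against 10.6% of 7286 genes of the table with an entry and 6.02% of all 32851 promoters. Here and below, a gene was counted if any of its entries held the motif, whereas the share of all promoters was counted per entry. The ETS-type motif was in 8 (21.6%, against 17.6% and 6.91%) and the GC box in 24 (64.9%, against 65.7% and 32.7%). The 6 with an E-box were Nop2, Nol11, Rrp7a, Imp4, Utp14b and Utp18, whose log2 fold changes ran from -0.66 (Nop2) to -0.10 (Utp18).

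Per kilobase of exon, Npm1 and Ncl were the most abundant of the 45 in the controls, with 327 and 165 CPM per kb, followed by Fbl with 134 and Rrp1 with 84.1. Npm1, the chaperone nucleophosmin (chromosome 11, 33052287 to 33063206), had 1216 and 945 CPM in the knockout-labelled arm against 779 and 965 in the control arm. Knockout-labelled replicate 1 was the highest, and the log2 fold change of 0.31 was the largest above 0 among the 45 (SE 0.26, edgeR adjusted p = 0.56). Ncl, nucleolin, had 1263 and 1229 CPM against 1210 and 1517, so that 3 libraries were close together and control replicate 8 stood above them. Its log2 fold change was -0.13 (SE 0.25). Nol7, a nucleolar protein placed in no role group, had 120 and 95.01 CPM against 94.99 and 101 (log2 fold change 0.14, SE 0.20).

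Because Npm1 and Ncl made up 43.7% of the members' CPM in the controls, the summed level hides the other genes. The sum over all 45 was 4917 and 4707 CPM in the knockout-labelled arm against 4538 and 5692 in the control arm. Without Npm1 and Ncl, the other 43 summed to 2437 and 2532 CPM against 2549 and 3210. Both knockout-labelled sums were then below both controls, though that of knockout-labelled replicate 2 was close to that of control replicate 3. Across the 45 genes, log2 fold change and mean log2 CPM had a Pearson r of 0.54 and a Spearman rho of 0.53, given as a description, since the genes share the same 4 libraries. Over the 9310 genes of the table with a transcript the same measures were -0.08 and -0.05. In sorted bulk samples, fewer cells of a type and less of a transcript per cell cannot be told apart.

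**Figure D2:**
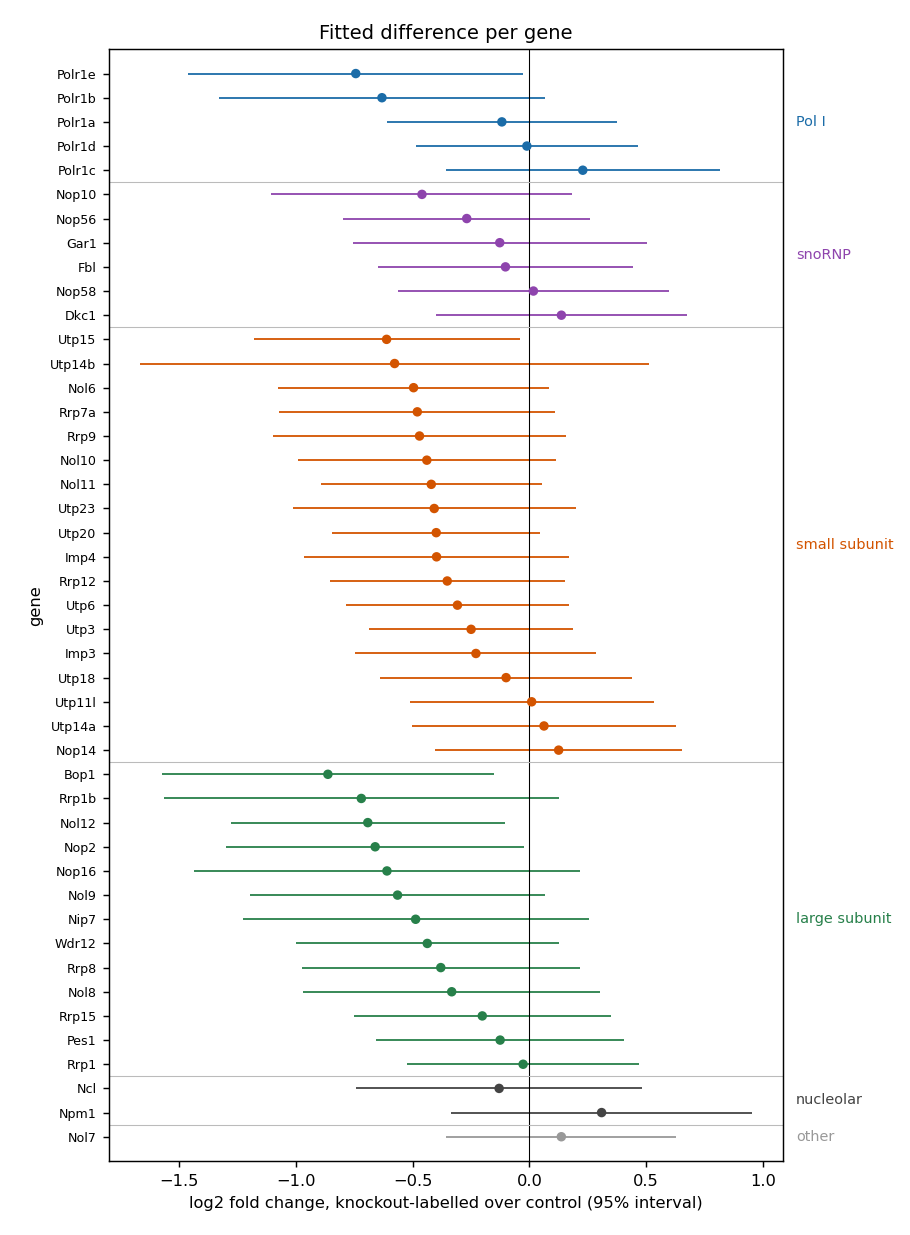
Fitted log2 fold change of each of the 45 genes, knockout-labelled over control, with its 95% interval from edgeR's quasi-likelihood fit; rows are genes, grouped and coloured by role. In 5 genes (Bop1, Nol12, Utp15, Polr1e and Nop2) the interval lies below 0, and none of the 45 passed after adjustment over all genes.

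The members had from 51 to 71799 counts per library. The parts of depth and of the spread between libraries in the precision of these differences were not separated. The SE ran from 0.18 to 0.44, with a median of 0.23. In 28 of the 45 the 95% interval of the log2 fold change lay above -1, so that a halving was outside it. In the remaining 17, among them Bop1, Rrp1b, Nop2 and Polr1e, the interval reached -1 or lower.

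Leaving out knockout-labelled replicate 2 moved the calls. In that fit 15 of the 45 passed as lower, where 15.3% of all genes did, and 0 passed as higher, where 17.3% did. The lone knockout-labelled library is then assumed to vary like the controls. The 15 were Bop1, Nol12, Nop2, Nol9, Rrp1b, Nop16 and Nip7 of the large subunit, Utp15, Nol6, Rrp7a, Imp4, Utp23 and Utp14b of the small subunit, and Polr1e and Polr1b. The snoRNP genes gave 0 calls in that fit. Leaving out any of the other 3 libraries gave 0 members in either direction. Among all genes, the fit lacking knockout-labelled replicate 1 called 1.29% higher and 0.0467% lower, that lacking control replicate 3 called 0.373% and 0.00933%, and that lacking control replicate 8 called 0.233% and 0.0187%. The median log2 fold change of the 45 was -0.225 when knockout-labelled replicate 1 was omitted and -0.44 when replicate 2 was. It was -0.48 with control replicate 3 omitted and -0.18 with control replicate 8 omitted, and in that last fit 29 of the 45 were below 0.

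**Figure D3:**
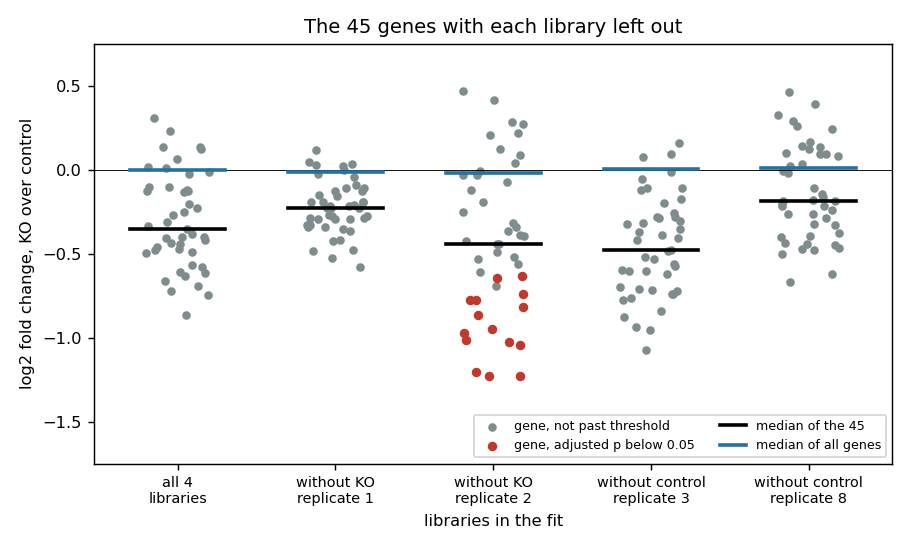
Log2 fold change of the 45 genes with all libraries and with each library left out in turn; points are genes, black bars their median, blue bars the median over all genes, and red points genes past the adjusted threshold. The 15 red points appear only in the fit without knockout-labelled replicate 2, and the median of the 45 is nearest to 0 without control replicate 8.

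Median GC content differed little between the members and other genes. The median GC content of the longest coding transcript was 50.3% for the 45 and 50.2% over 9310 genes with a transcript. Over the 45, GC content and fitted log2 fold change had a Pearson r of -0.31, and over the 9310 it was -0.02. When all genes were cut by GC content into 4 bins of equal size, the 11 members in the lowest bin had a median log2 fold change of -0.13, and in the upper 3 bins the medians of 10, 14 and 10 members were -0.42, -0.39 and -0.41. Over all genes the medians of the 4 bins lay between -0.04 and 0.03. Transcript length had a median of 2804 bases for the 45 and 3014.5 over the 9310. Length and fitted log2 fold change had a Spearman rho of -0.41 (Pearson r -0.27) over the 45. Over the 9310 these were 0.04 and 0.02. The part of length in these differences was not tested. The largest exon overlap of a member with another gene was that of Rrp7a with Serhl on the opposite strand, 12.5% of its exon length, and the strand of the libraries is not given in the sources used here.

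The rest of the pathway was read from lists drawn up by role. In 5 lists of other ribosome factors, 136 genes in all, 0 passed in either direction, 110 (80.9%) had a log2 fold change below 0, and the median was -0.24. Control replicate 8 was the highest library in 100 of the 136. Of 16 measured RNA polymerase I subunits and initiation factors outside the 45, 13 were below 0 with a median of -0.18. The smallest p values there belonged to Polr2f, a subunit shared by the nuclear polymerases, and Baz2a, a subunit of the complex that silences ribosomal DNA. Polr2f had 25.1 and 36.3 CPM against 42.8 and 47.7 (log2 fold change -0.56, SE 0.25). Baz2a had 106 and 180 CPM against 257 and 174 (-0.59, SE 0.33), and its knockout-labelled replicate 2 lay between the controls. Of 14 snoRNP partners and assembly factors, 13 were below 0 with a median of -0.36. The assembly factor Shq1 had 7.67 and 12.9 CPM against 15.1 and 18.1 (-0.69, SE 0.32), and the core protein Nhp2 had 50.6 and 65.3 against 67.3 and 96.7 (-0.50, SE 0.25). Both genes were named for their small p. In 8 of the 14, these genes among them, both knockout-labelled libraries lay below both controls, where 26.7% of all genes did. In 0 of the 14 they lay above both, where 27.4% did.

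The other 40S factors gave 29 of 36 below 0 (median -0.26). Heatr1, which acts with Utp15, had 57.6 and 60.2 CPM against 74.98 and 92.3 (-0.51, SE 0.19), and Pno1, a late 40S factor, had 24.6 and 28.7 against 35.6 and 43.5 (-0.57, SE 0.22). These genes too were named for their small p. They were among 21 of the 36 with both knockout-labelled libraries below both controls, against 26.7% of all genes. In 1 of the 36 both lay above both controls, against 27.4%. The other 60S factors gave 36 of 46 below 0 (median -0.22). Both knockout-labelled libraries lay below both controls in 25 of the 46, against 26.7% of all genes, and above both in 5, against 27.4%. Of the 46, 2 had an unadjusted p below 0.05 with values below the controls and 2 with values above, the latter being Nsa2 (0.64, SE 0.25) and Ddx24 (0.47, SE 0.18). Ebna1bp2 had 51.6 and 60.2 CPM against 74.7 and 91.0 (-0.57, SE 0.20), and Mrto4, a factor of the ribosomal stalk, had 41.7 and 50.9 against 63.2 and 73.2 (-0.56, SE 0.20). Of 24 genes of the exosome, other nucleases and the enzymes RNase P and MRP, 19 were below 0 (median -0.23). Pop1 and Pop7, proteins of RNase P and MRP, had the smallest p there. Pop1 had 8.81 and 16.3 CPM against 22.3 and 25.3 (-0.92, SE 0.34), and Pop7 had 9.79 and 10.5 against 15.8 and 14.01 (-0.55, SE 0.23). The adjusted p of these 10 named genes ran from 0.404 to 0.447 in edgeR's test. Without knockout-labelled replicate 2, the median log2 fold change of the 136 was -0.274, beside -0.017 over all genes.

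MYC is a transcription factor known to drive ribosome assembly. Myc had 68.7 and 91.3 CPM in the knockout-labelled arm against 55.8 and 70.8 in the control arm (log2 fold change 0.34, SE 0.23, edgeR adjusted p = 0.496). Of 9 measured genes of the MYC network 0 passed and 3 were below 0. Both knockout-labelled libraries lay below both controls in 2 of the 9 (Mxd3 and Mlx) and above both in 3. Over all genes these orders held in 26.7% and 27.4%. Mxd3, another MYC antagonist, had 13.8 and 44.9 CPM against 88.1 and 48.0 (-1.21, SE 0.58). The smallest p belonged to Mxd4 (1.54, SE 0.56) and Mxi1 (0.60, SE 0.25), which encode antagonists that compete for the partner protein MAX. Mxd4 had 5.71 and 2.51 CPM against 1.85 and 0.993, and Mxi1 had 219 and 164 against 145 and 107. Blocked ribosome assembly is known to stabilise p53 through free ribosomal proteins L5 and L11. A list of 10 genes drawn up for that response also held Trp53, Rpl5 and Rpl11 themselves. Of the 10, 0 passed, all 10 were above 0 and 7 had an unadjusted p below 0.05, against 9.82% of all genes. Whether blocked ribosome assembly had a part in these values was not tested. DESeq2 called 4 of the 10 higher, where it called 3.29% of all genes higher, and the likelihood ratio test called 5, where it called 3.09%. The median log2 fold change of the 10 ranged from 0.979 to 1.502 over the fits that each left out 1 library. Sesn2, a stress-induced regulator of growth signalling, had 55.4 and 61.7 CPM against 18.5 and 15.0 (1.81, SE 0.22, edgeR adjusted p = 0.0764). Cdkn1a, the cell-cycle inhibitor p21, had 56.3 and 29.6 CPM against 2.97 and 8.35 (2.91, SE 0.57). Sesn2 and Cdkn1a were named for their small p. They were among 9 of the 10 with both knockout-labelled libraries above both controls, against 27.4% of all genes. In 0 of the 10 both lay below both controls, against 26.7%. Rpl5 had 50.5 and 40.9 CPM against 11.1 and 24.2, and Rpl11 had 1120 and 815 against 655 and 862.

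**Figure D4:**
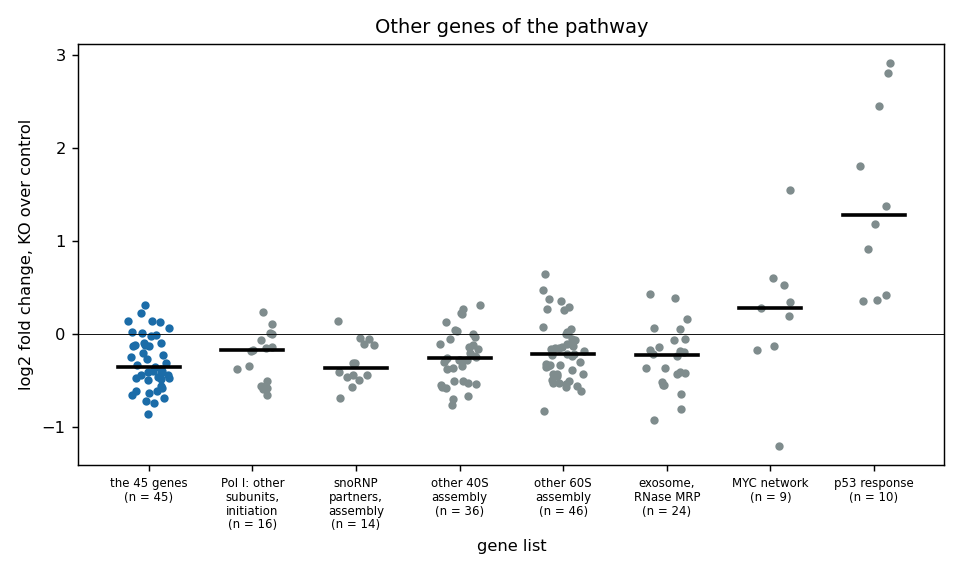
Log2 fold change, knockout-labelled over control, of the 45 genes and of the genes of 7 other lists; points are genes and bars the median of each list. The medians of the 45 and of the 5 lists of ribosome factors lie between -0.36 and -0.18, and that of the p53 list at 1.27.

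Markers of other cells moved with the libraries, and their part in these results was not tested. The neutrophil sums given above set knockout-labelled replicate 1 apart from the other 3 libraries, and Elane and Ctsg of that list were not in the table. Macrophage markers, 9 of 11 measured, had log2 fold changes below 0 in 8 of 9, with a median of -1.73. Both knockout-labelled libraries lay below both controls in 6 of the 9, against 26.7% of all genes, and 6 had an unadjusted p below 0.05, against 2.08%. The quasi-likelihood test in edgeR called 0 of these 9, and DESeq2 called 2 of them lower, where it called 0.196% of all genes lower. The defining markers Mertk and Cd163 were outside the table, and the complement gene C1qa had 0.196 and 0.803 CPM against 3.55 and 1.67. The list's sum was 50.1 and 23.4 CPM against 57.3 and 33.4, of which Lyz2, which neutrophils also express, held 43.1 and 8.32 against 9.68 and 10.9. Megakaryocyte markers, 6 of 7, summed to 152 and 103 CPM against 60.4 and 87.6, and hepatoblast markers, 7 of 9, to 58.3 and 68.6 against 125 and 49.5. The megakaryocyte sums were higher in both knockout-labelled libraries, and 5 of the 6 genes were above 0 with a median log2 fold change of 1.19. The hepatoblast sums overlapped, though 7 of the 7 genes were below 0 with a median of -0.575. Early erythroid and progenitor markers, 6 of 7 measured, were above 0 in 5 of 6, with a median log2 fold change of 0.37 and 0 past the threshold. Kit had 67.6 and 36.52 CPM against 36.51 and 30.8, and Runx1 had 49.6 and 25.1 against 21.1 and 20.8 (0.83, SE 0.35). In both genes knockout-labelled replicate 1 was far above the other 3 libraries. The list's sum, 342 and 317 CPM against 369 and 343, had Lyl1, the 1 gene below 0, as its most abundant part, with 123 and 181 against 241 and 202. Late erythroid markers, 9 of 9, summed to 17330 and 21900 CPM against 27760 and 19380. Slc4a1 alone held 10540 and 12910 against 15990 and 11560. Control replicate 8, the highest library for most of the 45, was thus the lower control for late markers. Knockout-labelled replicate 1, the lowest library in 30 of the 45, had the lowest late-marker sum of all. By gene it was the lowest library in 5 of the 9 late markers, where it was in 41.3% of all genes. It was the highest in Bnip3l, Tspo2 and Fbxo7, the 3 of the 9 with a log2 fold change above 0. Any link between these markers and the 45 genes was not tested.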

How the data were processed

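RNA was sequenced from 4 libraries of sorted erythroid cells, 2 labelled knockout and 2 wild type, grouped by title. The authors deposited raw counts per gene, whole numbers for 10716 genes, each above 1 CPM in at least 2 libraries, and a comparison whose p-values and adjusted p-values are named as the authors' deposited table. TopHat2 2.0.8, Trimmomatic 0.30, HTSeq, limma and edgeR appear among the tools in the submitters' processing notes, and mm9 and NCBIM37 as builds, with no role given. The 28356401 to 44016809 counts per library were fitted with edgeR 4.0.16 (R 4.3.3), using filterByExpr (0 genes removed), TMM scaling, glmQLFit with robust=TRUE and the default legacy option, and its quasi-likelihood F test, which is two-sided. There were 2 residual degrees of freedom, p was adjusted by Benjamini-Hochberg over all genes with a threshold of 0.05, and the common biological coefficient of variation was 25.6%. The SE is the absolute log2 fold change divided by the square root of F, and 95% intervals use the test's degrees of freedom. The fit was tested on simulated data. DESeq2 1.42.0 and limma-voom (limma 3.58.1) were among the alternatives.

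The members and gene lists were chosen with earlier results of these data known. Values per library were given for members past the threshold, the 3 with the smallest p per role, the 2 most extreme in each direction and the 3 most abundant per exon length, and in each pathway list for the 2 genes with the smallest p. Further examples were picked once their values were known. All 45 members passed the filter and exceeded 1 CPM in every library. Positions and exon lengths came from an NCBIM37 annotation, which held 9537 genes of the table and all 45 members. Nop9, Nop53 and Rrp36 were not analysed here.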

Additional observations from a re-analysis of the deposited data

How the results depend on the processing

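The count of 0 members past the threshold held under RLE and no library scaling, both other filters on low counts, DESeq2, limma-voom, the likelihood ratio test, legacy=FALSE and labelled sex as a covariate. The sex labels disagreed with the Y-linked gene Eif2s3y in most libraries, so the fit with that covariate cannot adjust for sex. When single libraries were left out, members called lower ranged from 0 to 15, and the 15 came without knockout-labelled replicate 2. The members' median log2 fold change kept its sign in all of these fits and ranged from -0.477 to -0.184 over the left-out libraries. Over all genes, 11 calls higher and 0 lower became 353 and 21 in DESeq2, 331 and 18 in the likelihood ratio test, 85 and 2 when library scaling was dropped, and 40 and 1 when labelled sex was added. Over the left-out libraries they ranged from 25 to 1851 higher and from 1 to 1641 lower. Of the 155 other pathway genes 0 passed, which became 4 higher in DESeq2, 5 in the likelihood ratio test, 1 when library scaling was dropped and 1 when labelled sex was added, and from 1 to 16 higher and 0 to 38 lower over the left-out libraries. The 4 in DESeq2 and the 5 in the likelihood ratio test were all genes of the p53 list. The 16 higher and the 38 lower came without knockout-labelled replicate 2. That fit, with 1 knockout-labelled library, called 17.3% of all genes higher and 15.3% lower.

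Members near 0 changed sign in fits in which none of them was called. Without library scaling the log2 fold change was -0.018 for Utp14a, -0.064 for Nop58 and -0.062 for Utp11l. Over the left-out libraries the log2 fold changes ranged as follows: Polr1c from -0.002 to 0.417, Dkc1 from -0.024 to 0.293, Nol7 from -0.042 to 0.286, Polr1a from -0.257 to 0.026, Nop14 from -0.055 to 0.324, Pes1 from -0.324 to 0.096, Gar1 from -0.354 to 0.136, Ncl from -0.283 to 0.033, Utp18 from -0.28 to 0.097, Fbl from -0.285 to 0.098, Utp14a from -0.126 to 0.246, Nop58 from -0.199 to 0.263, Polr1d from -0.126 to 0.086, Rrp1 from -0.172 to 0.125 and Utp11l from -0.119 to 0.143. The cause was not tested. No paired analysis was possible because the groups share no replicate numbers. Npm1 and Ncl, the members with the most counts, had SEs of 0.26 and 0.25, beside a median of 0.23 over the members. Utp14b, which had as few as 51 counts, had an SE of 0.44. Counting error was not set against the spread between libraries for each member.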
